A study of Homo sapiens with 36 samples.

Results

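The proteasome genes described here are 50 human genes, chosen by symbol from the 61587 rows of the gene count table. They are the 7 alpha subunits (PSMA1 to PSMA7) and 7 beta subunits (PSMB1 to PSMB7) of the 20S core particle, the 3 immunoproteasome beta subunits (PSMB8, PSMB9 and PSMB10), the 6 ATPases (PSMC1 to PSMC6) and 13 non-ATPase subunits of the 19S regulatory particle, 4 activators (PSME1 to PSME4), 5 assembly factors of the core particle (PSMG1 to PSMG4 and POMP), 3 assembly factors of the regulatory particle (PSMD5, PSMD9 and PSMD10), and the regulators NFE2L1 and DDI2. The rule is a list of gene names with no threshold on a measured value. All 50 symbols were found, and 49 had enough counts to be tested. PSMB8 did not, and its counts are given with the immunoproteasome subunits.

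RNA from HEK293T, a line derived from human embryonic kidney, was sequenced to ask how transcript levels respond to oxidants in cells with and without functional TXNL1, a thioredoxin-like protein that binds the 19S particle. All 36 libraries came from TXNL1 knockout (KO) cells, which the study derived by growing out single sorted cells and complemented by lentivirus. The 4 lines carried an empty vector (vector), wild-type TXNL1 (WT), D162R R234D TXNL1, which does not bind proteasomes (DR-RD), or TXNL1 with mutated thioredoxin active-site cysteines (SxxS). Each line received the solvent DMSO, hydrogen peroxide (H2O2, 600 µM) or sodium arsenite (Arsenite, 100 µM) for 6 h, with 3 replicates in each of the 12 groups. The doses and time are from the study's methods.

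The proteasome degrades proteins inside the 20S barrel, whose 2 outer alpha rings gate the entry and whose inner beta rings hold the proteases PSMB5 (chymotrypsin-like), PSMB6 (caspase-like) and PSMB7 (trypsin-like). The 19S particle binds ubiquitylated proteins, removes their ubiquitin and unfolds them with its ATPase ring. NFE2L1 (also called NRF1) is a transcription factor of the endoplasmic reticulum that is cleaved by the protease DDI2 and then drives proteasome genes, together with small MAF proteins, through antioxidant response elements.

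Total counts ran from 42072410 to 174119002 per library (median 66016833). TXNL1, the targeted gene, stood at 28.6, 31.6 and 31.7 CPM in the vector DMSO libraries and at 51.7 to 66.2 CPM in the other 9 DMSO libraries. CPM are counts scaled to a common library size after TMM normalization. Among HEK293T markers, LIN28B had 4732 to 17105 and VIM 19873 to 91549 counts per library, while PAX2 (8 to 79) and NEFM (0 to 29) were close to absent. Of markers of other cell types, PTPRC, ALB, PECAM1, MYOD1 and INS reached at most 63 counts, and COL1A1 had 520 to 1906. According to the study's methods, cells were treated in triplicate in multi-well plates. Whether the triplicates came from separate passages is not given, and p-values measure the spread between these libraries.

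Among the 36 libraries, a pair stood apart. The SD of log2 CPM about the group median over 15674 genes reached 0.55 for WT Arsenite replicate 1. For WT H2O2 replicate 2 it reached 0.63, against 0.08 to 0.19 for the other 34. These libraries were also high in proteasome genes. The median tested member lay 0.40 and 0.57 on the log2 scale above its group median in them. Both were kept unless stated, and results that rest on them are given with and without them.

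In DMSO, transcript levels of the members were uneven even within one complex. Levels between genes are given as CPM per kilobase of the gene length in the table, as means over the 12 DMSO libraries. Per length, the core beta subunits were the highest class with a median of 102.6 CPM per kilobase, from PSMB2 at 50.4 ± 1.10 to PSMB4 at 135.8 ± 8.29 (SD, n = 12). The alpha subunits had a median of 32.2, from 20.5 (PSMA2) to 111.9 (PSMA7). The ATPases had a median of 31.8, from 11.0 (PSMC2) to 102.5 (PSMC3), and the non-ATPases one of 40.8, from 17.0 (PSMD1) to 83.5 (PSMD8). Subunits that enter the proteasome in equal numbers thus differed several-fold in transcript level per length, which also depends on which exons the length includes. Without division by length, the beta, alpha and non-ATPase classes were alike. Their middle subunits by mean DMSO CPM were PSMB7 (183.4), PSMA4 (183.6) and PSMD13 (186.2).

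Among the remaining members, POMP, the chaperone that closes the core particle, was as high as the beta subunits at 98.5 ± 5.68 CPM per kilobase. PSME3 (PA28 gamma, the nuclear activator) stood at 65.1 ± 1.46, above PSME4 (PA200) at 16.3 and the interferon-linked PSME1 and PSME2 (PA28 alpha and beta) at 13.1 and 6.89. NFE2L1 stood at 18.6 ± 0.51 and DDI2 at 10.8 ± 0.92. Only 3 members were near absence in all 36 libraries. PSMB8 had 0 to 9 counts, with 19 libraries at 0. PSMB9 had 4 to 47 counts, and PSMD5, an assembly chaperone of the 19S base, had 0 to 25, with 9 libraries at 0. The germ-cell paralog PSMA8 and the thymic paralog PSMB11 had 0 counts in 33 libraries each.

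**Figure D1:**
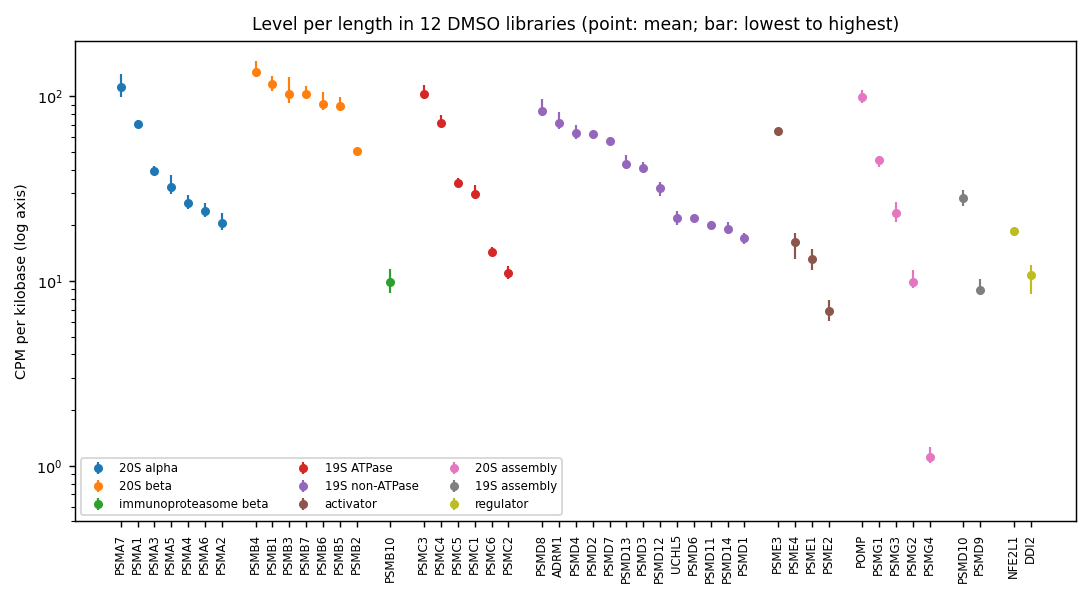
Level per length (CPM per kilobase, log axis) of 47 members in the 12 DMSO libraries, with the mean as a point and a bar from the lowest to the highest library. The core beta subunits sit between 50.4 and 135.8, and PSMB8, PSMB9 and PSMD5, each below 0.1, are left out.

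The promoters were searched for the antioxidant response element because it is the site through which NFE2L1 acts. RefSeq promoter windows (GRCh38.p14) were found for 44 of the 50 members, of which the 250 bases before the start were searched on both strands. The core TGACNNNGC, where N is any base, was present in 13 of the 44 windows (29.5%), against 11.0% of 27305 windows of the same length. Among the 33 subunits of the standard 26S particle (alpha, beta, ATPase and non-ATPase), 5 of 28 windows held it. These are shown with the core in capitals and 10 bases on either side, read 5′ to 3′ on the strand that holds the match.
ADRM1, chr20:62302749-62302777, plus strand: cgctcccctaTGACACAGCaacaataggg
PSMB3, chr17:38752627-38752655, plus strand: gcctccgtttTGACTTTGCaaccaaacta
PSMD3, chr17:39980760-39980788, plus strand: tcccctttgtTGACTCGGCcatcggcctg
PSMD12, chr17:67366724-67366752, minus strand: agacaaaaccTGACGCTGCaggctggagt
UCHL5, chr1:193059393-193059421, minus strand: gcgctgcaggTGACGGCGCccggaggctg

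After arsenite, described next, ADRM1, PSMB3, PSMD3 and PSMD12 were called higher and UCHL5 lower. Of the 23 subunits whose window held no such core, 20 were called higher, with a median log2 fold change of 0.33 against 0.25 for the 5 with it. Over all tested members, 9 of the 13 with the core and 21 of the 30 without it were called higher, with medians of 0.25 and 0.26. A pair of heat shock element units, GAANNTTC, was in 0 of the 44 windows and in 5.85% of all windows. The NF-Y box CCAAT was in 19 of the 44 (43.2%) and in 33.04% of all. Among the subunits, 13 of the 14 with this box and 11 of the 14 without it were called higher after arsenite. Over all tested members, 13 of 19 with it and 17 of 24 without it were. None of these differences by motif was tested. NFE2L1 held 5 CCAAT boxes and no antioxidant response core. Its 250 bases before the start are shown with these boxes in capitals (ATTGG where the box is on the other strand), since it is the regulator with the larger number of matches.
NFE2L1, chr17:48048109-48048358, plus strand: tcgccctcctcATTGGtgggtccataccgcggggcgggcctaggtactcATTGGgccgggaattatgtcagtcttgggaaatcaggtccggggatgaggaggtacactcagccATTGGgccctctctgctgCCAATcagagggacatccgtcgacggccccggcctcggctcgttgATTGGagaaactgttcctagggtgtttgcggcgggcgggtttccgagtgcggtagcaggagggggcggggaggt

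Arsenite raised most proteasome transcripts while both regulators fell to about 0.5 of their DMSO level. Averaged over the 4 lines, 35 of the 49 tested members were called higher, 8 lower and 6 in neither direction (edgeR quasi-likelihood test, Benjamini-Hochberg adjusted p under 0.05 over 22486 genes). Arsenite changed much of the transcriptome, and 37.4% of all tested genes were called higher and 31.5% lower (68.8% in either direction). The members' median log2 fold change was 0.26 against 0.06 for all genes. Without both outlying WT libraries, 35 were called higher and 9 lower with a median of 0.20, beside 38.4% and 35.3% of all genes. In these bulk samples, more RNA per cell and more cells of a kind cannot be told apart, and each level is a share of the library.

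Of the 33 subunits of the 26S particle, 29 were called higher and 2 lower, with a median log2 fold change of 0.32 (0.25 without the outlying libraries). Their summed level was 5826 to 6467 CPM in the 12 DMSO libraries (median 5948) and 7343 to 10809 CPM in the 12 Arsenite libraries (median 7492). The lowest Arsenite library lay above the highest DMSO library, and the highest without WT Arsenite replicate 1 was 7934 CPM.

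**Figure D2:**
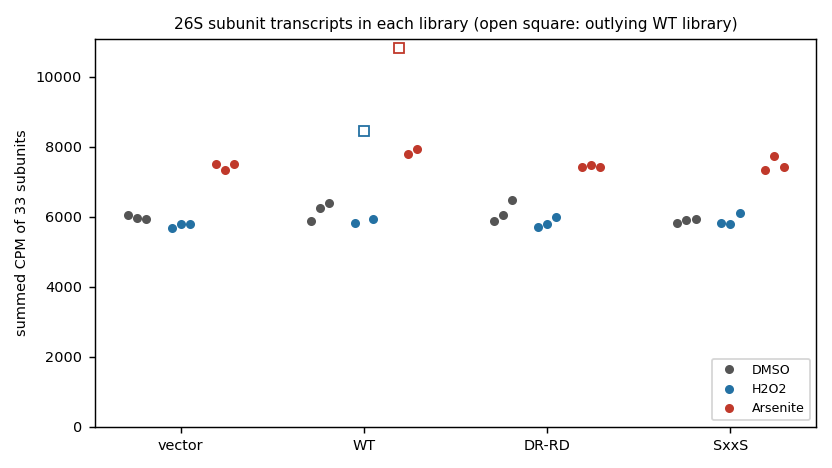
Summed CPM of the 33 subunits of the 26S particle in each of the 36 libraries, by line and treatment. All 12 Arsenite libraries lie at 7343 CPM or above and all 12 DMSO libraries at 6467 or below, and the open squares are the outlying WT libraries at 8463 (H2O2) and 10809 (Arsenite).

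All 7 alpha subunits of the core particle were called higher, by log2 fold changes from 0.22 (PSMA1) to 0.48 (PSMA7). PSMA1, PSMA2 and PSMA6 share 26.7%, 17.2% and 14.1% of their exon bases with unnamed genes on the same strand. Counts of these genes rose by 0.19, 0.23 and 0.25 in the same order. Of the 7 beta subunits, 5 were called higher, led by PSMB1 at 0.56 ± 0.07 (SE). Of the 3 proteases, PSMB6 and PSMB7 were called higher. PSMB7 went from 175 to 202 CPM in DMSO (median 180.1) to 231 to 426 CPM after Arsenite (median 239). All Arsenite libraries lay above all DMSO libraries, as for 13.4% of all tested genes. The log2 fold change of PSMB7 was 0.48 ± 0.07 (adjusted p = 1.0e-06). PSMB6 had 121 to 153 CPM in DMSO (median 129.7) and 133 to 263 after Arsenite (median 142), with overlapping ranges, and rose by 0.21 ± 0.08 (adjusted p = 0.031). That call was lost with DESeq2 size factors (adjusted p = 0.054) with no filter on low counts (adjusted p = 0.12) and without WT Arsenite replicate 1 (adjusted p = 0.098), and the log2 fold change was 0.11 without the outlying libraries.

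PSMB5, the chymotrypsin-like protease and the main target of proteasome inhibitors, was not called higher. It had 128 to 153 CPM in DMSO (median 137) and 109.6 to 201 after Arsenite (median 122), where the value of 201 belonged to WT Arsenite replicate 1. Over all libraries its log2 fold change of -0.12 ± 0.07 was not called (adjusted p = 0.11), while without both outlying libraries it was -0.20 ± 0.03 and called lower (adjusted p = 8.7e-08). It was also called lower without WT Arsenite replicate 1 alone (-0.18, adjusted p = 0.0057) and with total counts (-0.17, adjusted p = 0.0068). PSMB2 was not called either, at 0.02 ± 0.03. Of the immunoproteasome counterparts, PSMB10 had 14.1 to 18.9 CPM in DMSO and 13.4 to 34.3 after Arsenite and was not called (log2 fold change 0.10, adjusted p = 0.43, and -0.01 without the outlying libraries). It shares 39.4% of its exon bases with an unnamed gene on the same strand, which had 801 to 5537 counts per library and was not called either (-0.05). PSMB9, at a few counts per library, had a log2 fold change of 0.02 ± 0.32, and PSMB8 was not tested.

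All 6 ATPases were called higher, with log2 fold changes from 0.28 (PSMC6) to 0.74 (PSMC2) and a median of 0.49. PSMC2 rose from 88.9 to 104 CPM in DMSO (median 94.6) to 149.8 to 178 CPM after Arsenite (median 159), a fold of 1.67 with an SE of 0.03 on the log2 scale (adjusted p = 2.9e-18). PSMC1 rose by 0.60 ± 0.07, but 76.1% of its exon bases are shared with NRDE2 on the opposite strand, whose counts rose by 0.51. Whether the counting used the strand is not given in the sources used here, so reads of such partners cannot be told apart. Every one of the 6 ATPases was higher in all 12 Arsenite libraries than in all 12 DMSO libraries, as were 13.4% of all tested genes.

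Of the 13 non-ATPase subunits, 11 were called higher and 2 lower. PSMD7, the structural partner of the deubiquitylase PSMD14, had the largest rise among members with more than 25 counts per library. It had 147.4 to 161.8 CPM in DMSO (median 156) and 269.5 to 451 after Arsenite (median 287), a log2 fold change of 0.94 ± 0.06 (adjusted p = 4.2e-14), and 0.85 without the outlying libraries. On 31.2% of its exon bases it shares sequence with an unnamed gene on the opposite strand, whose counts rose by 0.96. ADRM1, a ubiquitin receptor, had 142 to 176 CPM in DMSO (median 151) and 237 to 348 after Arsenite (median 249.9), a log2 fold change of 0.76 ± 0.07 (adjusted p = 3.1e-11). It shares 17.2% of its exon bases with an unnamed gene and LAMA5 together, both on the opposite strand. Counts of the unnamed gene rose by 0.79 and those of LAMA5 by 0.25. PSMD13, a lid subunit, rose by 0.71 ± 0.07.

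The 3 subunits that TXNL1 contacts were all called higher. PSMD1, the large scaffold of the 19S base, went from 250.4 to 288 CPM in DMSO (median 268) to 400.1 to 464 CPM after Arsenite (median 417), with a log2 fold change of 0.65 ± 0.03 (adjusted p = 2.8e-19). PSMD14, the deubiquitylase of the lid, went from 132 to 153 CPM (median 139) to 191 to 247 CPM (median 197), a rise of 0.52 ± 0.04 (adjusted p = 1.0e-13). PSMD4, a ubiquitin receptor, went from 178 to 211 CPM (median 188) to 219.6 to 378 CPM (median 225), a rise of 0.32 ± 0.07 (adjusted p = 1.8e-04). For each of these 3, every Arsenite library lay above every DMSO library, as for 13.4% of all tested genes. At the other end, PSMD2, the other large scaffold of the base, rose by 0.07 ± 0.02, and PSMD11 (-0.12 ± 0.03) and the deubiquitylase UCHL5 (-0.09 ± 0.03) were called lower.

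**Figure D3:**
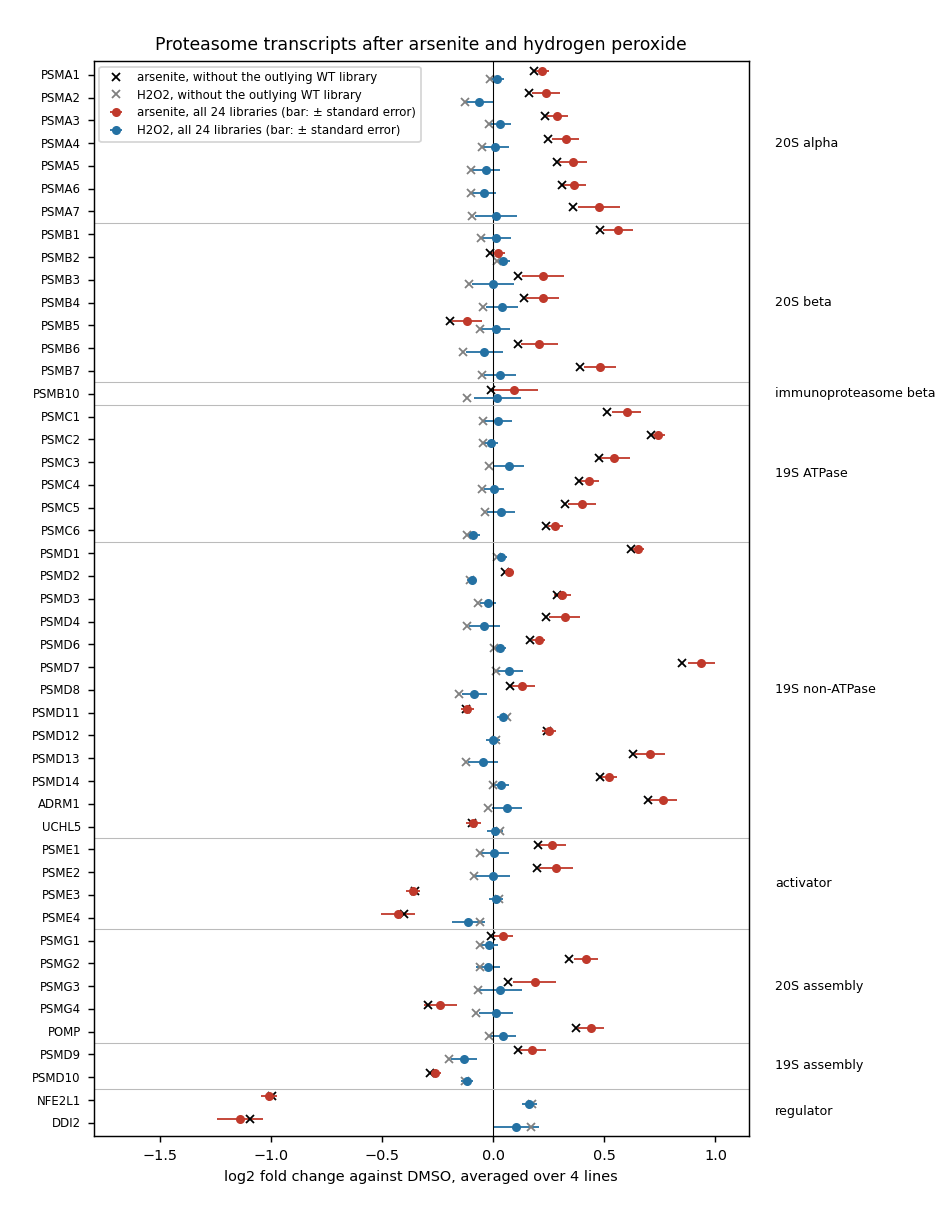
Log2 fold change against DMSO, averaged over the 4 lines, for 47 members in their groups, with arsenite in red and H2O2 in blue, bars for ± 1 SE, and crosses for the value without the outlying WT libraries. Arsenite values of the ATPases lie between 0.28 and 0.74, NFE2L1 and DDI2 lie at -1.01 and -1.14, and H2O2 values of the 33 subunits lie between -0.10 and 0.07 (PSMB8, PSMB9 and PSMD5 are left out for low counts).

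The 4 activators split. PSME1 and PSME2, which form the PA28 ring of immune cells, were called higher at 0.26 ± 0.06 (adjusted p = 6.7e-04) and 0.28 ± 0.08 (adjusted p = 0.0021). PSME1 had 20.4 to 26.5 CPM in DMSO and 25.3 to 37.3 after Arsenite, and PSME2 had 21.7 to 28.4 and 26.9 to 47.2, so that their ranges overlapped. PSME3 fell from 319 to 347 CPM (median 335) to 230.4 to 301 CPM (median 259), a log2 fold change of -0.36 ± 0.03 (adjusted p = 4.4e-11). PSME4, which opens the core particle for acetylated histones, had 137 to 189.9 CPM in DMSO (median 169.6) and 84.1 to 135 after Arsenite (median 131), a log2 fold change of -0.43 ± 0.07 (adjusted p = 9.4e-06). Every Arsenite library lay below every DMSO library for PSME3 and for PSME4, as for 16.6% of all tested genes.

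Assembly factors moved in both directions. POMP rose from 134 to 158 CPM (median 141) to 174 to 292 CPM (median 188), by 0.44 ± 0.06 (adjusted p = 1.2e-07), and PSMG2, a chaperone of the alpha ring, by 0.42 ± 0.05. PSMG2's partner PSMG1 (0.04 ± 0.04) and PSMG3 (0.19 ± 0.10) were not called, with values of -0.01 and 0.06 without the outlying libraries, and PSMG4 was called lower at -0.24 ± 0.08. Of the 19S chaperones, PSMD9 was called higher at 0.17 ± 0.06 (0.11 without the outlying libraries). PSMD10 (gankyrin) was called lower at -0.26 ± 0.03 (adjusted p = 2.0e-09), from 60.6 to 74.5 CPM in DMSO (median 66.8) to 51.4 to 61.7 CPM (median 54.9). PSMD5 was also called higher at 1.66 ± 0.47, on 0 to 6 counts per library in DMSO and 0 to 25 after Arsenite. Its mean was higher after Arsenite in vector, DR-RD and SxxS but not in WT (0.063 CPM in DMSO and 0.049 after Arsenite).

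NFE2L1 and DDI2 had the largest falls of all members. NFE2L1 stood at 104 to 113 CPM in the 12 DMSO libraries (median 110.4) and at 43.5 to 59.6 CPM in the 12 Arsenite libraries (median 55.0). The groups were far apart, with a log2 fold change of -1.01 ± 0.04 (adjusted p = 1.4e-20), which is 0.50 of the DMSO level. DDI2 stood at 104 to 149 CPM in DMSO (median 132) and at 32.6 to 68.5 after Arsenite (median 62.3), a log2 fold change of -1.14 ± 0.10 (adjusted p = 6.8e-11). The lowest Arsenite value of both genes was in WT Arsenite replicate 1, and without the outlying libraries the log2 fold changes were -0.995 and -1.09. DDI2 shares 18% of its exon bases with RSC1A1 on the same strand, whose counts fell by 0.63 on the log2 scale.

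Read library by library, 22 members were higher in every Arsenite than in every DMSO library, a pattern that 13.4% of all tested genes had. They were 5 alpha subunits, PSMB1 and PSMB7, the 6 ATPases, 8 non-ATPases and POMP. The same 22 had it without the outlying libraries, as did 17.3% of all tested genes. NFE2L1, DDI2, PSME3 and PSME4 were lower in every Arsenite than in every DMSO library, as were 16.6% of all tested genes. PSMD10 joined them without the outlying libraries, beside 18.4% of all tested genes.

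**Figure D4:**
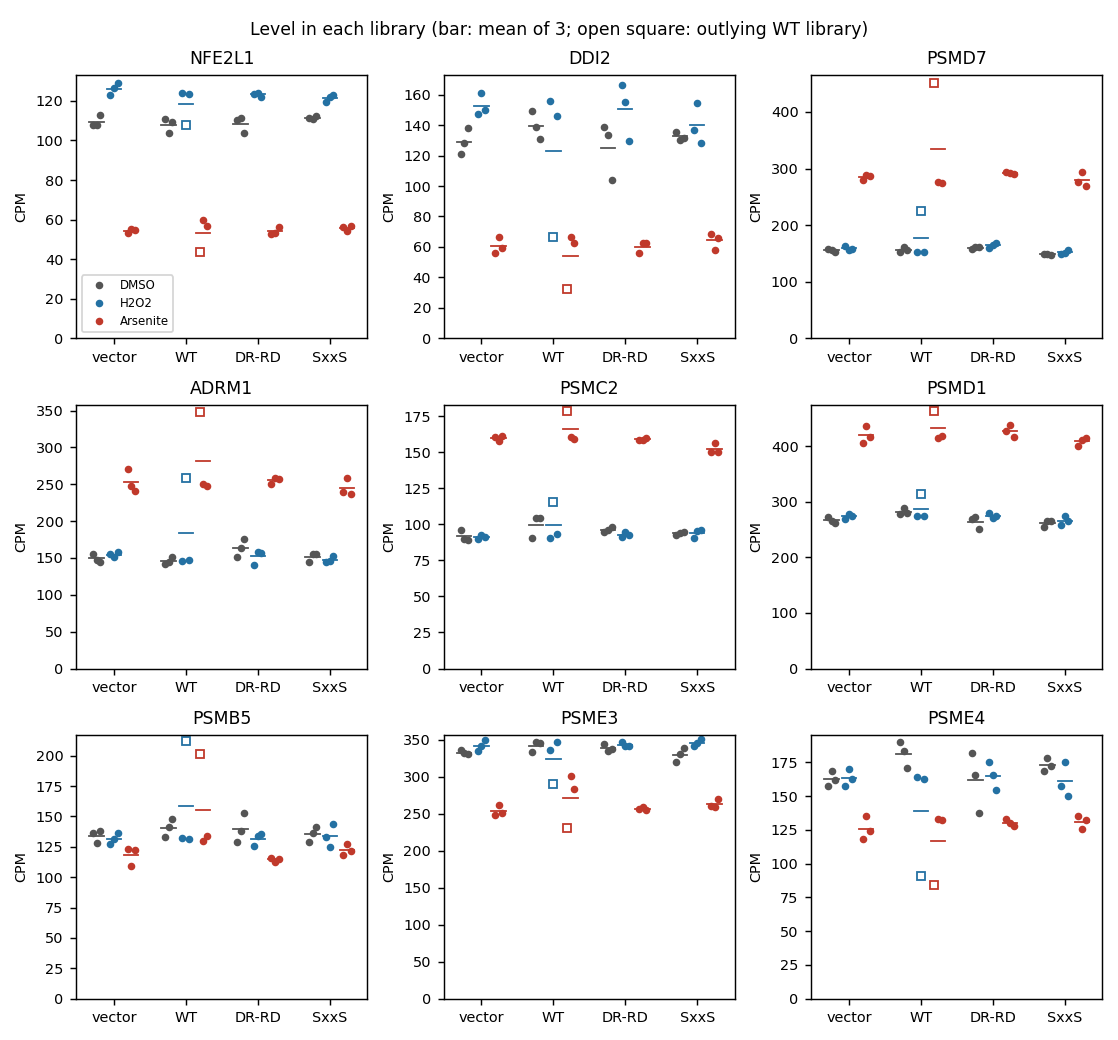
CPM in each library for 9 members, by line (x axis) and treatment (colour), with the mean of 3 replicates as a bar and open squares for the outlying WT libraries. NFE2L1 lies between 104 and 113 in DMSO and between 43.5 and 59.6 after Arsenite, while PSMD7, ADRM1, PSMC2 and PSMD1 lie higher after Arsenite in all 4 lines.

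The arsenite response was also fitted within each line, to ask whether it depends on TXNL1. Within the vector line 20 members were called higher and 5 lower, beside 22.1% and 21.4% of all genes (43.4% in either direction). In DR-RD the counts were 18 and 4 (22.5% and 21.5% of all genes, 44% together), and in SxxS 24 and 6 (22.1% and 21.5%, 43.6% together). In WT they were 36 and 5 (28.7% and 24.9%, 53.6% together), but without WT Arsenite replicate 1 only 25 were called higher. The share of all genes in that last fit is not given here. With both outlying libraries left out, 24 of the 33 subunits were called higher in vector, 28 in WT, 23 in DR-RD and 27 in SxxS. Of all genes, 28%, 26.5%, 28.2% and 28.7% were called higher in the same order. Without both outlying libraries, the median log2 fold change of the 33 subunits was 0.25 in vector, 0.27 in WT, 0.23 in DR-RD and 0.30 in SxxS.

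Members called higher in each of the 4 lines were ADRM1, POMP, PSMG2, PSMA6, PSMB1, the 6 ATPases, PSMD1, PSMD3, PSMD7, PSMD12, PSMD13 and PSMD14, which is 17 of 49, against 14.9% of all genes. NFE2L1, DDI2, PSMD10 and PSME3 were called lower in each line, against 16.1% of all genes. NFE2L1 changed by -1.01 in vector, -1.02 in WT, -1.003 in DR-RD and -0.999 in SxxS (SE 0.07 each). PSMD1, whose product contacts TXNL1, changed by 0.65, 0.61, 0.69 and 0.64 in the same order (SE 0.05 each), and PSMD14 by 0.54, 0.56, 0.43 and 0.56 (SE 0.07 each).

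A direct test of whether the arsenite response differed among the 4 lines (edgeR, 3 degrees of freedom) called 0 members and 0 of the 22486 genes (0%). Over all genes it called 46 without both outlying libraries, and DESeq2 called 35 with all libraries, none of them members. At an unadjusted p under 0.05 the edgeR test gave 1 member, PSMG1 (adjusted p = 0.70), beside 1432 of all genes, and DESeq2 called 0 members. PSMG1's arsenite values were -0.05 in vector, 0.30 in WT, -0.12 in DR-RD and 0.04 in SxxS (SE 0.09 each), the WT value including the outlying library. For PSMD1 the adjusted p of this test was 0.94, for PSMD14 0.88 and for PSMD4 0.88.

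**Figure D5:**
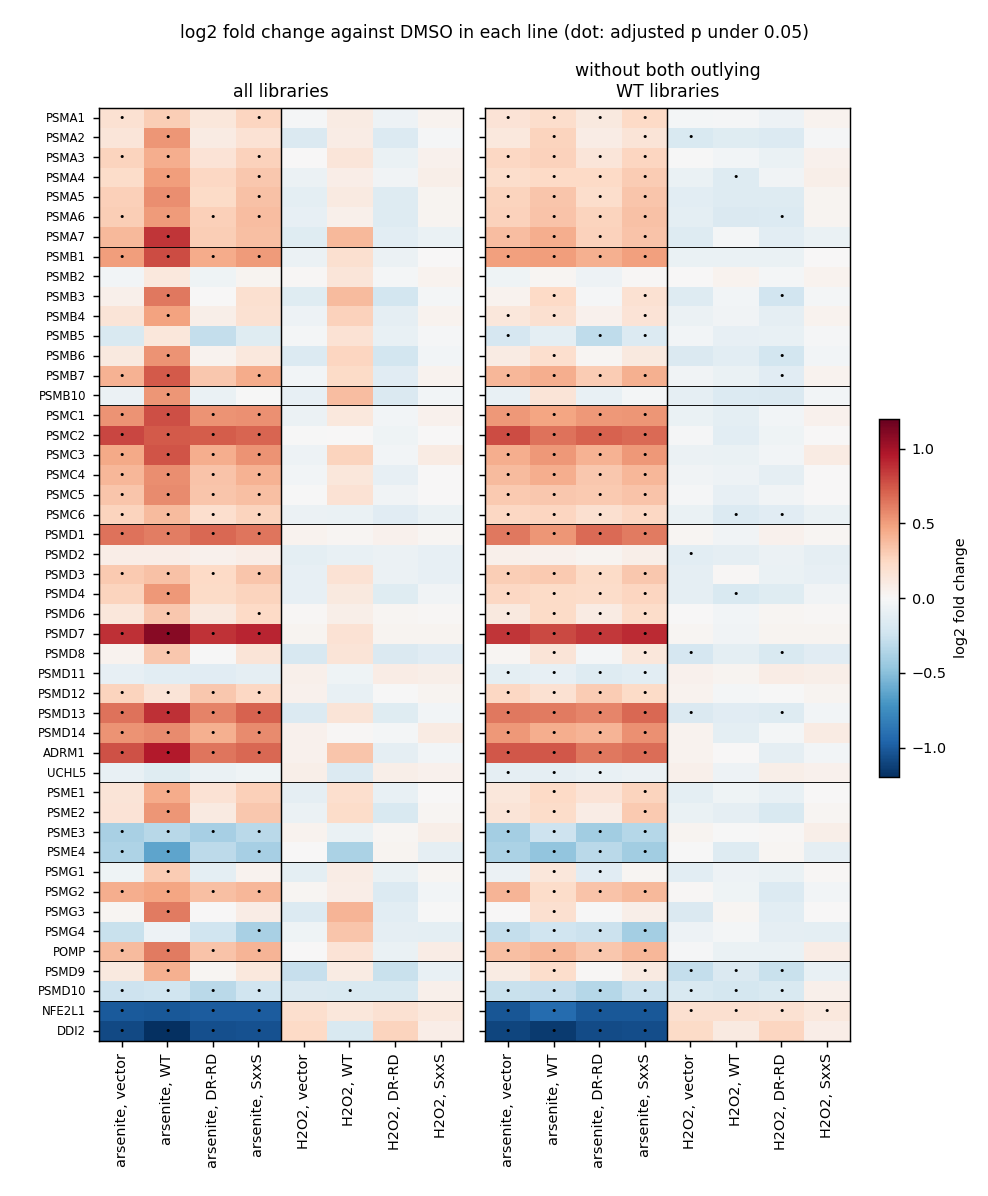
Log2 fold change against DMSO of 47 members (rows) for arsenite and H2O2 in each line (columns), with all libraries on the left and without both outlying WT libraries on the right, and a dot where the adjusted p was under 0.05. Arsenite columns are red for most subunits and dark blue for NFE2L1 and DDI2 in every line, and the WT columns on the left, which include the outlying libraries, are redder than on the right.

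H2O2, at a dose given for the same 6 h, left proteasome transcripts close to DMSO. Averaged over the lines, 1 member was called higher and 2 lower of 49, beside 6.78% and 5.3% of all genes (12.1% in either direction). The 33 subunits had log2 fold changes from -0.10 to 0.07 with a median of 0.01 (-0.16 to 0.06 and -0.05 without both outlying libraries). Their summed level was 5690 to 8463 CPM (median 5812), against a DMSO median of 5948, and WT H2O2 replicate 2 gave the 8463, with 6097 the highest of the other 11.

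NFE2L1 was the member called higher after H2O2. It had 107.9 to 129 CPM (median 123) against 104 to 113 CPM in DMSO, a log2 fold change of 0.16 ± 0.04 (adjusted p = 0.0021), opposite to its fall after arsenite. Its single low H2O2 value of 107.9 was in the outlying WT library, and without both outlying libraries every H2O2 library lay above every DMSO library, as for 1.13% of all genes. It was then called higher in each line, by 0.19 in vector, 0.19 in WT, 0.18 in DR-RD and 0.13 in SxxS (SE 0.04 each). DDI2 had 66.7 to 167 CPM (median 149) against 104 to 149 CPM and was not called (0.10 ± 0.10, adjusted p = 0.63), while without the outlying libraries it was called higher at 0.17 ± 0.05 (adjusted p = 0.012).

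The members called lower after H2O2 were PSMD2, at -0.10 ± 0.02 (adjusted p = 0.0016), and PSMD10, at -0.12 ± 0.03 (adjusted p = 0.0047). PSMD2 had 278 to 308 CPM (median 289.7) against 295 to 326 in DMSO (median 311), and PSMD10 56.5 to 67.9 CPM (median 60.4) against 60.6 to 74.5. In both, the ranges overlapped, and both calls were lost with no filter on low counts (adjusted p = 0.17 and 0.12).

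The H2O2 counts depended on the outlying libraries. Without WT H2O2 replicate 2 alone, 2 members were called higher and 5 lower, a fit for which the share of all genes is not given here. Without both outlying libraries, 3 members were called higher (NFE2L1, DDI2 and PSMD11) and 16 lower, beside 14.7% and 13.9% of all genes. The 12 among them that belong to the 33 subunits were PSMA2, PSMA5, PSMA6, PSMA7, PSMB3, PSMB6, PSMC6, PSMD2, PSMD3, PSMD4, PSMD8 and PSMD13, with log2 fold changes from -0.16 (PSMD8) to -0.07 (PSMD3). The others were PSMB10, PSMG1, PSMD10 and PSMD9, the last at -0.20 ± 0.03. These changes were small beside those after arsenite, where the median subunit rose by 0.25 in the same libraries.

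Within single lines, edgeR called PSMD10 lower after H2O2 in WT (-0.18 ± 0.06, adjusted p = 0.046) and no other member in any line. Of all genes, 0.712% were called higher and 0.636% lower in vector (1.35% together), 5.8% and 2.26% in WT (8.06%), 0.503% and 0.525% in DR-RD (1.03%), and 0.409% and 0.609% in SxxS (1.02%). At an unadjusted p under 0.05 there were 4 members in vector, 10 in WT, 4 in DR-RD and 1 in SxxS. Of the 22486 genes tested, 2542, 5666, 2408 and 2208 were under it in the same order. DESeq2 called 1, 2, 1 and 0 members lower. The test of a difference in H2O2 response among the lines called 0 members and 0.685% of all genes. PSMD10 (adjusted p = 0.31) and PSMD3 (adjusted p = 0.51) were the 2 members with an unadjusted p under 0.05, beside 1970 of all genes. DESeq2 called 0 members.

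Set directly against H2O2, arsenite gave 35 members called higher and 8 lower (37.3% and 31.3% of all genes, 68.7% together). This comparison shares the Arsenite libraries with the one against DMSO. NFE2L1 was lower by 1.17 on the log2 scale after arsenite than after H2O2 and DDI2 by 1.24, while PSMD7 was higher by 0.87 and PSMC2 by 0.75.

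Without oxidant, the TXNL1 status of the cells left no difference in proteasome transcripts that passed the test. In DMSO, 0 of the 49 members were called between WT, DR-RD or SxxS and vector by edgeR and by DESeq2. The edgeR test called 0.196%, 0.0267% and 0.0178% of all genes. At an unadjusted p under 0.05 there were 0 members, beside 1574, 702 and 744 of all genes in the same order. Of all genes, 0.0222% were higher and 0.173% lower in WT, 0.00889% and 0.0178% in DR-RD, and 0.00445% and 0.0133% in SxxS. Over the 33 subunits, log2 fold changes against vector ran from -0.07 to 0.14 in WT, from -0.03 to 0.13 in DR-RD and from -0.07 to 0.04 in SxxS, with a median SE of 0.12. The 95% bounds of single subunits (normal approximation) reached from -0.44 to 0.44, so smaller differences were not detectable for the most variable of them. The SE for PSMD1 was 0.05, and its values were 0.08 in WT, -0.01 in DR-RD and -0.03 in SxxS. UCHL5 was called higher in WT without both outlying libraries (0.14 ± 0.04, adjusted p = 0.044, beside 0.8% of all genes), and its value over all libraries was the same size (0.14 ± 0.07, adjusted p = 0.72).

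Genes that work with the proteasome or its regulators were counted from lists of the same kind, to be read against the 37.4% of all genes called higher and 31.5% lower after arsenite. Of 11 proteasome-associated factors, 6 were called higher and 2 lower (7 and 3 without the outlying libraries). AKIRIN2, which brings proteasomes into the nucleus, rose by 1.90 ± 0.04, from 39.8 to 49.1 CPM in DMSO to 135 to 183 CPM. TXNL1 itself rose by 0.93 ± 0.03 averaged over the lines. The complemented lines also carry a TXNL1 transgene, whose reads may count to the same gene. In the vector line, which carries none, TXNL1 also rose and stood at 67.9 to 71.9 CPM. PITHD1, another protein with the domain by which TXNL1 binds the proteasome, rose by 0.39 ± 0.04, while USP14, a deubiquitylase of the 19S particle, was called lower at -0.23 ± 0.04. Of 6 genes for ubiquitin shuttles and the unfoldase VCP, 3 were called higher and 2 lower (3 and 3 without the outlying libraries), from VCP at 0.47 ± 0.03 to UBQLN2 at -1.04 ± 0.06.

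Of 9 genes that process NFE2L1 or share its partners, 5 were called higher and 3 lower (5 and 4 without the outlying libraries). The related factor NFE2L2 (NRF2) rose by 1.41 ± 0.03, from 48.5 to 52.4 CPM in DMSO to 105 to 159 CPM, and the partner MAFF by 3.78 ± 0.09, from 0.924 to 1.44 CPM to 14.0 to 18.97 CPM. NFE2L3, the third factor of this family, was called lower at -0.83 ± 0.04, and so was SEL1L, part of the complex that extracts NFE2L1 from the endoplasmic reticulum, at -1.40 ± 0.11. Of 5 interferon and antigen presentation genes, which accompany the immunoproteasome, 2 were called higher and 1 lower (2 and 2 without the outlying libraries). NLRC5 rose by 0.71 ± 0.14 and TAP1 by 0.13 ± 0.05, and IRF1 was called lower at -0.82 ± 0.05. In none of these lists were the shares tested against those of all genes.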

How the data were processed

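The study isolated total RNA and had messenger RNA libraries made from it. The 36 libraries (4 TXNL1 KO HEK293T lines, 3 treatments, 3 replicates each) were sequenced by strand-specific, paired-end sequencing with 100-base reads. According to the study's methods, the authors aligned reads to the GRCh38 primary assembly with QuasR and deposited raw read counts per gene, without normalization and with replicates not pooled. The annotation release and the use of strand, mates and multiply mapped reads are not given in the sources used here. An alternative with halved counts stands for mates counted separately. A gene length stands beside the counts and equals the GENCODE 44 exon length for 47 of the 50 members. Of the 61587 rows, 61369 matched GENCODE 44, and 0 columns of per-sample values were unmatched to a sample.

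Genes with at least 10 counts in total over the 3 DMSO vector libraries were kept (22486 of 42726 with a count), as in the study. All 36 libraries entered 1 robust quasi-likelihood fit with a mean for each group (edgeR 4.0.16, limma 3.58.1, R 4.3.3, TMM normalization, biological coefficient of variation 12.4%), with Benjamini-Hochberg adjustment over all tested genes and calls at an adjusted p under 0.05. The study used DESeq2, and DESeq2 1.42.0 was run as an alternative. Others were DESeq2 size factors, total counts, other filters, only the groups compared, a replicate block, libraries left out in turn and both outlying WT libraries left out together. Replicates of a group differed beyond sampling noise in every pair (chi-square per degree of freedom at least 3.11). The code was tested on simulated counts.

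The members, lists, named genes and the alternative without the outlying libraries were chosen with earlier results of these data known. Named were the regulators, the TXNL1 contacts PSMD1, PSMD4 and PSMD14, the proteases and their immunoproteasome counterparts, POMP, the activators, and the 4 largest rises and falls among called members for each oxidant. Others were named as ends of a range, for their calls or for exon overlap, after their values were seen. Exons of 26 of the 50 members overlap another gene. Promoter sequences are from RefSeq.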

Additional observations from a re-analysis of the deposited data

How the results depend on the processing

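Counts of members called higher or lower after arsenite, averaged over the lines, stayed within 1.5 times of 35 and 8 under every alternative and every left-out library (31 to 36 higher, 8 to 9 lower), and both counts for arsenite against H2O2 did too (32 to 38 and 8 to 10). The counts after H2O2 did not. Averaged over the lines, 4 were called lower with total counts, 0 with no filter and 16 without both outlying WT libraries, which also gave 3 higher; leaving out single libraries gave 1 to 2 higher and 2 to 5 lower, with the 2 and the 5 without WT H2O2 replicate 2. Within lines, fitting only the groups compared gave 32 higher and 9 lower for arsenite in vector, 14 and 3 in WT, 7 lower in DR-RD, and for H2O2 2 higher and 13 lower in vector, 0 lower in WT, and 1 higher and 1 lower in SxxS. Without both outlying libraries, arsenite gave 9 lower in vector, 8 in WT and 10 in DR-RD, beside 28.4%, 26.4% and 28.7% of all genes. H2O2 then gave 1 higher in each line, beside 4.84%, 5.23%, 5.51% and 2.9% of all genes in vector, WT, DR-RD and SxxS. It gave 6 lower in vector, 5 in WT and 9 in DR-RD, beside 5.03%, 3.76% and 4.85%. WT against vector in DMSO gave 1 higher, beside 0.8%. For other settings within lines and for single libraries left out, shares of all genes are not given here. DESeq2 gave 1, 2 and 1 lower after H2O2 in vector, WT and DR-RD. The call of PSMD10 after H2O2 in WT was lost with no filter and with halved counts (0 lower). Leaving out single libraries, H2O2 in WT gave 0 to 7 higher (7 without WT H2O2 replicate 1) and 0 to 2 lower, and H2O2 in DR-RD 0 to 1 lower. Fitting fewer groups or leaving out the outlying libraries changes the shared spread, and leaving them out also moved the log2 fold changes. Averaged over the lines after H2O2, the median of the 33 subunits was 0.01 with all libraries and -0.05 without both outlying libraries. The cause of the changed counts was not tested. Of 242 alternative values for the log2 fold changes of named members, 228 kept direction and call, 5 lost and 3 gained the call, and 6 reversed, all uncalled: PSMB9 after arsenite was -0.0255 with total counts, -0.0011 with no filter, -0.0621 without both outlying libraries, -0.0285 with halved counts and -0.1433 without DR-RD Arsenite replicate 1, and PSMB10 was -0.0109 without both outlying libraries. Replicate numbers did not pair the libraries (correlations of deviations from group means ran from -0.85 to 0.78), and the replicate block gave 34 members called higher and 8 lower after arsenite and changed no count by over 1.5 times. At these depths counting error limits only PSMB8, PSMB9 and PSMD5. With no filter the median log2 fold change of all genes after arsenite was 0.17, against 0.06, and with total counts it was 0.02.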
